A study of Mus musculus with 14 samples.

Results

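Ltf, Lcn2, Dmbt1, Slpi, S100a9, Cd14 and Cd55, 7 genes of secreted antimicrobial and innate defence proteins, were followed through 5 sorted populations of the mouse mammary gland. They were chosen by name, with every probe set of the value table that carries 1 gene symbol, which gave 9 of 9645 probe sets and 7 of 6044 named genes. Cd55 had 3 probe sets (1418762_at, 1443906_at and 1460242_at) and each other gene had 1. RNA came from untreated virgin female C57BL6/J mice aged 6 to 8 weeks. Their dissociated glands were stained for CD45, CD31, Ter119, CD24, CD49f and Thy-1, the cells were sorted in duplicate passes, and the RNA was hybridized to Affymetrix mouse genome arrays. The luminal layer was represented by 2 arrays of CD24medCD49f-/low and 3 of CD24highCD49fmed cells, and the basal layer by 3 arrays of each of Thy-1-CD24medCD49fhigh, CD24medCD49fmed and Thy-1+CD24medCD49fhigh cells. The paper writes CD24lowCD49fmed for the population labelled CD24medCD49fmed. The labels name no animal for a replicate, so p-values here measure the spread between these samples, which may be technical. All values are log2 and centred on the mean of the 14 arrays, so a value of 1 is a doubling of that mean level within a gene, and levels cannot be compared between genes.

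The mammary epithelium is a bilayer of luminal cells, which make milk, and contractile basal cells. Many of its secreted products guard the gland and the suckling young against microbes. Ltf encodes lactoferrin, which withholds iron from bacteria. Lcn2 encodes lipocalin 2, which captures the iron-carrying siderophores of bacteria. Dmbt1 encodes a large mucosal scavenger glycoprotein that binds bacteria, and Slpi encodes a small inhibitor of neutrophil elastase with antimicrobial activity of its own. S100a9 encodes a subunit of calprotectin, a metal-binding alarmin of neutrophils whose other subunit is the product of S100a8. Cd14 encodes the co-receptor that hands bacterial lipopolysaccharide (LPS) to Tlr4, and Cd55 encodes decay-accelerating factor, which protects a cell's own surface from complement.

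The RefSeq promoter table (mouse build GRCm38.p6) held an entry for 5 of the 7 genes. The 250 bases before the start site are printed for 1 gene of each pattern described below: Ltf was a luminal gene, Slpi a basal gene, Lcn2 was high in cells of both layers, and S100a9 was high in 1 population. They are Ltf at chr9:111019042-111019291 on the plus strand, Slpi at chr2:164356508-164356757, Lcn2 at chr2:32387740-32387989 and S100a9 at chr3:90695722-90695971, the last 3 on the minus strand. Capitals mark AGGAAG, a motif bound by ETS factors such as Elf5, or its complement CTTCCT.
Ltf: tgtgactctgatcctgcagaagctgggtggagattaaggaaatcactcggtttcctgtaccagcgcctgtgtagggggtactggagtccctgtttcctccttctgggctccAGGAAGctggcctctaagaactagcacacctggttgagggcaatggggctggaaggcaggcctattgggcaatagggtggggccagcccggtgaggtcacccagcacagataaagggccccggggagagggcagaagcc
Slpi: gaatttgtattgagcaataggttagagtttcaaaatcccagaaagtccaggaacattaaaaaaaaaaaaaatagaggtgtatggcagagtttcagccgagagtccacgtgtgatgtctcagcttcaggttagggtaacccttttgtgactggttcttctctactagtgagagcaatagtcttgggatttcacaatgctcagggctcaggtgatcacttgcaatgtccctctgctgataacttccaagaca
Lcn2: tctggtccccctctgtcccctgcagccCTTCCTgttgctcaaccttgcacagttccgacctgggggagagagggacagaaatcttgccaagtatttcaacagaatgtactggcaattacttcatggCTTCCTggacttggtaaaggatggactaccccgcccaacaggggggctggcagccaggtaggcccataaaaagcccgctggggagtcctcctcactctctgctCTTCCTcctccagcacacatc
S100a9: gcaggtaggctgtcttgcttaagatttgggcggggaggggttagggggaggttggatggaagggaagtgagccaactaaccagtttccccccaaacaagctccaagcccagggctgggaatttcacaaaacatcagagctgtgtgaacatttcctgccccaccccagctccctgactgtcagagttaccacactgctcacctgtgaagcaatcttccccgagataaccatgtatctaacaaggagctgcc
Both strands were searched for 4 motifs, and no match overlapped another: AGGAAG, the TATA box TATAAA, the STAT motif TTCNNNGAA and an NF-kB motif of GGGA and CC with 4 bases of any kind between them. Ltf held 1 AGGAAG at -139 to -134, counted back from the start site, and Lcn2 held 3 copies on the opposite strand, beginning at -223, -124 and -21. AGGAAG occurred in 29.5% of the 32851 promoters of this length in the table. Slpi and S100a9 held none of the 4 motifs. In Cd55, whose window is not printed, the NF-kB motif matched once at -61 to -52, as it did in 17.6% of promoters. TATAAA occurred in 12.4% and TTCNNNGAA in 7.0% of promoters, and in none of these 5 windows. A match of letters is a description of the window and not a site of binding.

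All 17 measured basal markers, among them Krt14 and Acta2, were lower in the 5 luminal arrays (CD24medCD49f-/low and CD24highCD49fmed) than in the 9 basal arrays, and all 18 measured luminal markers were higher, Ltf and the other 6 genes not being among them. Of all rows 17.4% were called lower and 27.7% higher in luminal cells. Vim, Sparc, Cldn3, Epcam and Elf5 spanned less than the table's filter of 2.00 log2 within either layer. They entered it through the difference between the layers, so their part in these counts is a description. Markers of other cells also lay on the basal side: 6 of 8 measured fibroblast and 8 of 12 measured endothelial markers were called lower in luminal cells. The summed endothelial markers ran from -14.05 to -11.16 in luminal arrays and from -9.43 to 35.09 in basal arrays, and the fibroblast markers from -15.24 to -5.35 and from 0.52 to 18.03, with both highest sums in Thy-1+CD24medCD49fhigh cells. Their part in the basal excess of Slpi and of the other genes called basal here was not tested. Thy1, which encodes the Thy-1 antigen, was 2.00, -0.07 and 3.03 in Thy-1+CD24medCD49fhigh cells and -0.77, -0.10 and -0.36 in those sorted without it, so that replicate 2 of the first hardly stood above the second. The median over all genes of an array lay between -0.15 and 0.28, except for Thy-1+CD24medCD49fhigh replicates 1 (-0.74) and 3 (-0.51).

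Ltf had the widest and cleanest separation of the layers. Its values were 3.83 and 3.85 in CD24medCD49f-/low cells, 2.65, 2.73 and 2.82 in CD24highCD49fmed cells, -1.95, -2.22 and -2.36 in CD24medCD49fmed cells, -1.68, -1.71 and -0.95 in Thy-1-CD24medCD49fhigh cells, and -1.58, -1.96 and -1.47 in Thy-1+CD24medCD49fhigh cells. The luminal arrays all lay above the basal arrays, with 3.60 log2 between the nearest values, and the 2 luminal populations did not overlap either. In bulk samples like these, fewer expressing cells and less RNA per cell cannot be told apart.

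Cd14 followed the same order. It was 2.78 and 2.49 in CD24medCD49f-/low cells and 1.22, 1.84 and 1.70 in CD24highCD49fmed cells. In basal cells it was -1.15, -1.45 and -1.25 (CD24medCD49fmed), -1.60, -0.85 and -0.60 (Thy-1-CD24medCD49fhigh) and -0.89, -1.39 and -0.85 (Thy-1+CD24medCD49fhigh). The 3 basal populations overlapped each other and stayed below every luminal array.

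Cd55, averaged over its 3 probe sets, was also luminal, with 1 exception. It was 1.73 and 1.70 in CD24medCD49f-/low cells and 0.79, 0.83 and 0.90 in CD24highCD49fmed cells, the narrowest spread of any of the 7 genes there. In CD24medCD49fmed cells it was -1.19, -0.77 and -0.79, in Thy-1-CD24medCD49fhigh cells -0.89, -0.60 and -1.03, and in Thy-1+CD24medCD49fhigh cells -0.83, -1.14 and 1.29. The high value of Thy-1+CD24medCD49fhigh replicate 3 was above all CD24highCD49fmed arrays. The probe sets correlated at r = 0.84 to 0.961 over the 14 arrays and disagreed most in Thy-1+CD24medCD49fhigh replicate 1, where 1418762_at, 1443906_at and 1460242_at gave -1.75, -1.23 and 0.49. Cd55b, a close copy of Cd55, was not among the named genes, and whether its RNA reached these probe sets was not tested.

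Dmbt1 differed between the layers on average almost as much as Ltf, but with a narrower gap between the nearest values, as the CD24medCD49f-/low replicates disagreed. It was 3.24, 3.72 and 3.78 in CD24highCD49fmed cells, but 0.72 in the first CD24medCD49f-/low array and 3.57 in the second. Basal values were -2.46, -2.62 and -2.29 in CD24medCD49fmed cells, -2.50, -0.69 and -0.60 in Thy-1-CD24medCD49fhigh cells and -1.94, -1.63 and -0.32 in Thy-1+CD24medCD49fhigh cells. Replicate 1 thus lay between the layers, 1.04 log2 above the highest basal array.

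Slpi ran the other way. It was 1.88, 1.17 and 2.43 in CD24medCD49fmed cells, 2.12, -0.51 and 2.24 in Thy-1-CD24medCD49fhigh cells and -0.06, 0.24 and -0.11 in Thy-1+CD24medCD49fhigh cells. Luminal values were -1.51 and -1.84 in CD24medCD49f-/low cells and -1.97, -2.15 and -1.93 in CD24highCD49fmed cells. Every basal array was above every luminal array, and among basal cells the Thy-1+CD24medCD49fhigh arrays and Thy-1-CD24medCD49fhigh replicate 2 were lowest.

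Lcn2 followed neither layer. It was 1.37 and 0.75 in CD24medCD49f-/low cells and -0.52, -0.37 and -0.63 in CD24highCD49fmed cells. In basal cells it was 0.47, 0.52 and 0.58 (CD24medCD49fmed), 0.62, -0.05 and 0.94 (Thy-1-CD24medCD49fhigh) and -2.01, 0.50 and -2.17 (Thy-1+CD24medCD49fhigh). CD24highCD49fmed cells were below CD24medCD49f-/low cells with no overlap, as were 15.2% of all rows. The 2 lowest values were those of Thy-1+CD24medCD49fhigh replicates 1 and 3, whose medians over all genes were also lowest, and the part of those medians in the Lcn2 values was not tested.

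**Figure D1:**
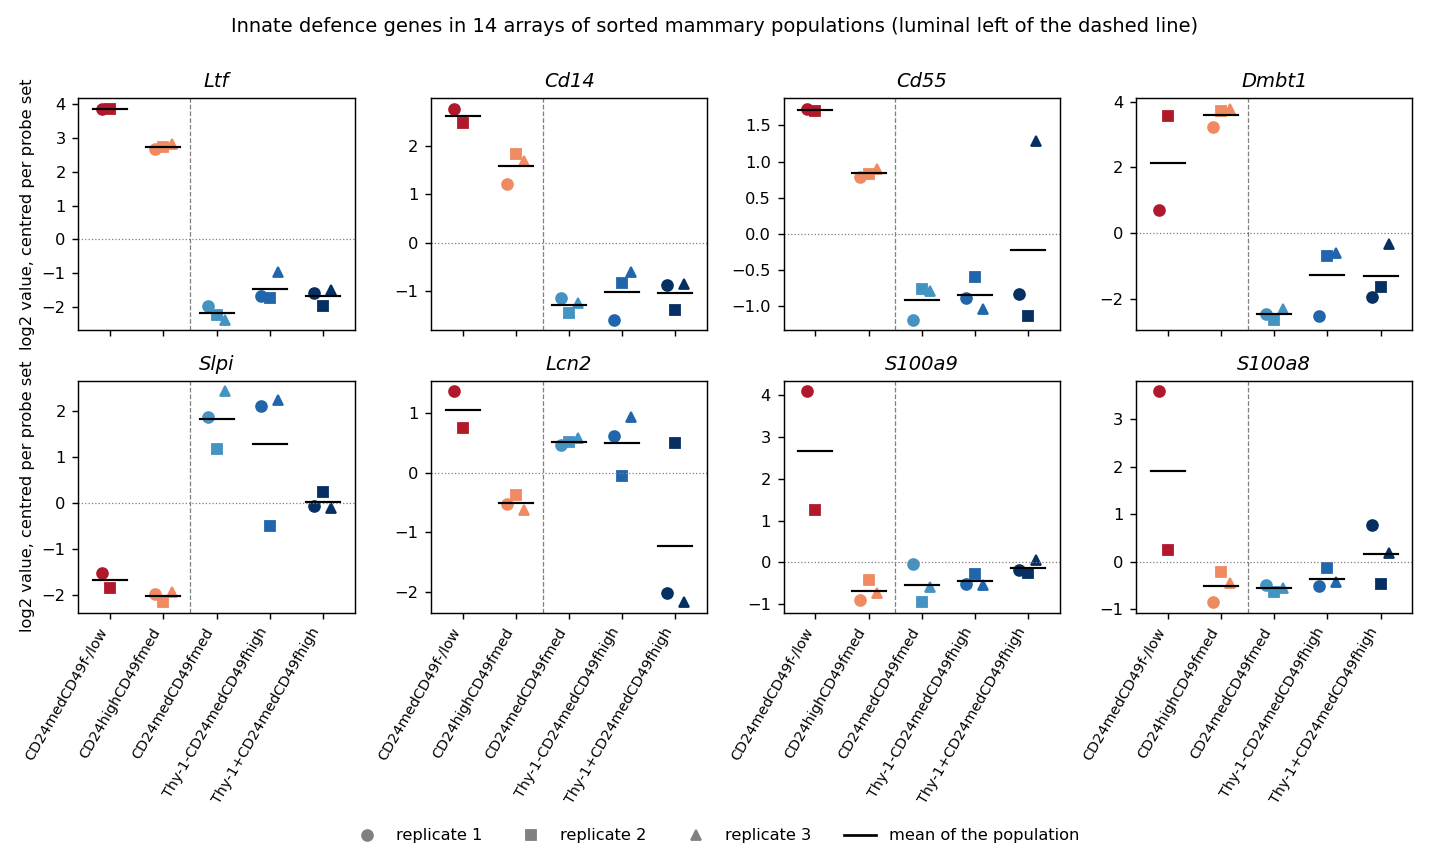
Values of the 7 genes and of S100a8 in each array, in log2 units centred per probe set (vertical axes differ between panels), with 1 symbol per replicate number and a line at the mean of each population. Ltf, Cd14 and Dmbt1 are above every basal array in all luminal arrays, Slpi is below every basal array, and S100a9 and S100a8 are highest in CD24medCD49f-/low replicate 1 (4.10 and 3.59).

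Between luminal and basal cells, 6 of the 7 genes passed the threshold of a limma adjusted p under 0.05, 5 higher and 1 lower in luminal cells. Over all 7190 genes and unnamed probe sets, 27.7% passed as higher and 17.4% as lower, 45.1% in all, so that a call by itself is common here. The table holds only probe sets that spanned at least 2.00 log2, and Ltf and Cd14 spanned less than that within the basal arrays (1.41 and 1.00) and within the luminal arrays (1.198 and 1.56), so they entered it through the difference between the layers itself. Dmbt1 (2.31), Slpi (2.94), Lcn2 (3.12) and the 3 probe sets of Cd55 (2.32 to 3.05) spanned more among basal arrays alone. S100a9 spanned 1.02 without CD24medCD49f-/low cells, so it entered the table through that luminal population and its call is a description. Ltf was 5.05 higher (33.1-fold, SE 0.26, limma adjusted p = 2.85e-11). Dmbt1 was 4.54 higher (SE 0.43, 8.85e-08), Cd14 3.23 (SE 0.27, 2.08e-08) and Cd55 1.94 (SE 0.34, 0.000132). Slpi was -2.90 in luminal relative to basal cells (SE 0.39, 6.11e-06). S100a9 passed at 1.36 higher (SE 0.36, limma adjusted p = 0.00513) although its groups overlapped, and Lcn2 did not pass (0.34, SE 0.38, 95% interval -0.44 to 1.13, adjusted p = 0.457). Ltf, Dmbt1 and Cd14 were higher in each of the 5 luminal arrays without overlap, as were 16.5% of all rows, and Slpi was lower without overlap, as were 9.51%. Centring each array on its own median brought the median of all rows to 0.06, changed the shares of all rows to 19.9% higher and 21.8% lower, and kept the 6 calls, with Ltf at 4.78, Dmbt1 at 4.27, Cd14 at 2.96, Cd55 at 1.67, S100a9 at 1.09 and Slpi at -3.17.

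Without CD24medCD49f-/low replicate 1, S100a9 fell short (0.65 higher, SE 0.33, limma adjusted p = 0.139), while Ltf (5.06), Dmbt1 (5.25), Cd14 (3.16), Cd55 (1.93) and Slpi (-2.98) still passed, with 32.9% of all rows called. Lcn2 depended on the Thy-1+CD24medCD49fhigh arrays. It was 0.63 higher in luminal cells without replicate 2 (adjusted p = 0.0261) and -0.23 without replicates 1 and 3 (adjusted p = 0.386), a choice made after the data were seen.

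CD24highCD49fmed cells alone, set against the same 9 basal arrays with no CD24medCD49f-/low array in the fit, kept 5 of the genes past the threshold, where 23% of all rows were called higher and 14.2% lower. Dmbt1 was 5.25 higher (SE 0.43, limma adjusted p = 8.60e-08), Ltf 4.50 (SE 0.33, 1.62e-08) and Cd14 2.70 (SE 0.34, 8.13e-06). Cd55 was 1.502 higher (SE 0.42, 0.00942) and did not pass with median-centred arrays (1.15, adjusted p = 0.0680). Slpi was -3.07 (SE 0.48, 6.92e-05). S100a9 gave -0.32 (SE 0.33, 95% interval -1.02 to 0.37, adjusted p = 0.444) and Lcn2 -0.44 (SE 0.46, 95% interval -1.40 to 0.52, adjusted p = 0.452). The luminal excess of Ltf, Dmbt1, Cd14 and Cd55 and the basal excess of Slpi were thus measured without the CD24medCD49f-/low array of high S100a9 and S100a8. Basal arrays with high leukocyte marker sums, described below, were in this fit, and the same number of genes passed when each basal array was left out in turn. Without both Thy-1+CD24medCD49fhigh replicates 1 and 3, left out after the data were seen, Lcn2 passed as well (-1.02, limma adjusted p = 0.00564).

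CD24medCD49f-/low cells, compared with the same basal arrays, had 6 genes past the threshold, against 8.16% of all rows called higher and 9.29% lower. Ltf was 5.60 higher, Dmbt1 3.82, Cd14 3.75, S100a9 3.04 (SE 0.55, limma adjusted p = 0.000810) and Cd55 2.38, Slpi was -2.72, and Lcn2 did not pass (1.13, SE 0.57, adjusted p = 0.196). S100a9 spanned 1.02 log2 over the 12 other arrays and so entered the table only through CD24medCD49f-/low cells, which makes its call here a description. In fits with 1 array in that arm, which is assumed to vary like the basal arrays, few rows were called (4.21% of all with replicate 2 and 4.39% with replicate 1). With only replicate 2, 3 genes passed (Ltf, Dmbt1 and Cd14) and S100a9 was 1.61 higher (adjusted p = 0.167). With only replicate 1, 3 passed (Ltf, S100a9 and Cd14) and Dmbt1 was 2.39 higher (adjusted p = 0.0887). Lcn2 passed without Thy-1+CD24medCD49fhigh replicate 2 (1.42, adjusted p = 0.0122). The comparisons with basal cells share their 9 basal arrays and are not independent of each other.

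**Figure D2:**
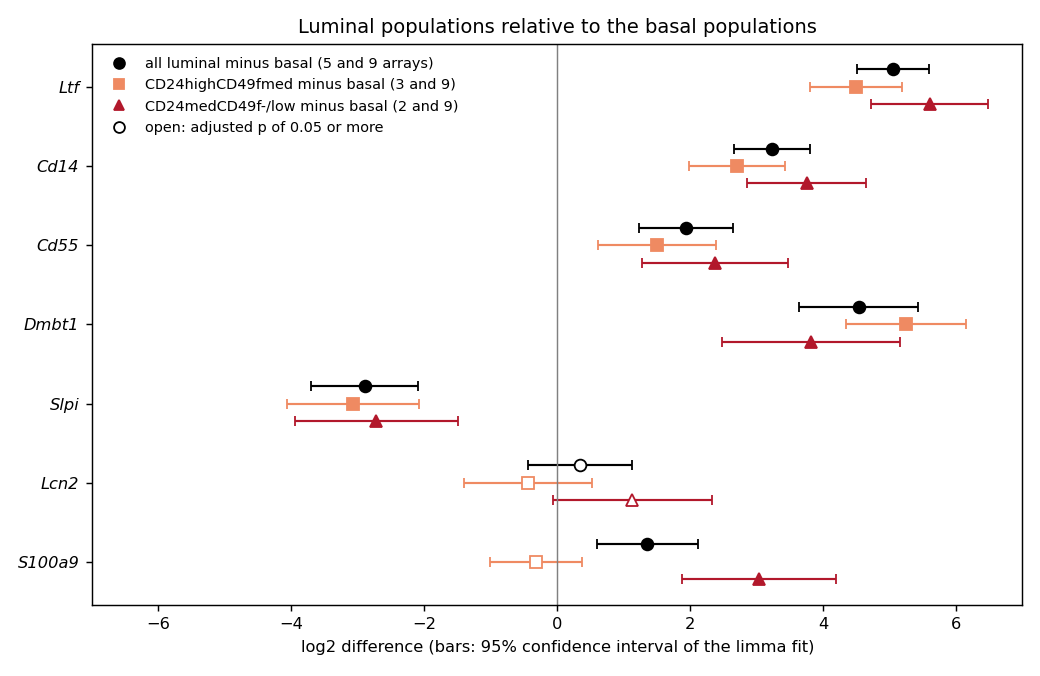
Difference in log2 of each gene between luminal and basal cells, for all 5 luminal arrays, the 3 CD24highCD49fmed arrays and the 2 CD24medCD49f-/low arrays, each against the 9 basal arrays (bars are 95% confidence intervals, open symbols did not pass an adjusted p of 0.05). S100a9 was 3.04 in CD24medCD49f-/low cells and -0.32 in CD24highCD49fmed cells, while the intervals of Ltf, Cd14, Cd55, Dmbt1 and Slpi lie on 1 side of 0 in all 3 comparisons.

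Within the luminal layer, 5 of the 7 genes were lower in CD24highCD49fmed (n = 3) than in CD24medCD49f-/low cells (n = 2) with limma, where 2.57% of all rows were called lower and 3.02% higher. Ltf was -1.10 (SE 0.17, limma adjusted p = 0.0175), Lcn2 -1.57 (SE 0.23, 0.0134), Cd14 -1.05 (SE 0.23, 0.0397), Cd55 -0.88 (SE 0.17, 0.0295) and S100a9 -3.36 (SE 0.66, 0.0296). Each of these 5 was lower in all CD24highCD49fmed arrays without overlap, as were 15.2% of all rows. S100a9 entered the table only through CD24medCD49f-/low cells, so its call and lack of overlap here are a description. Dmbt1 was 1.44 higher (SE 0.67, 95% interval -0.08 to 2.96, adjusted p = 0.205), and it passed with the replicate number as a block (1.34, limma adjusted p = 0.00549). Slpi was -0.34 (95% interval -0.78 to 0.10, adjusted p = 0.284), not called although it too was lower without overlap. With 5 arrays these calls were fragile. None of the 7 passed without CD24medCD49f-/low replicate 1 or without CD24highCD49fmed replicate 3, fits that called 0% and 0.0417% of all rows, and Lcn2 alone passed without CD24highCD49fmed replicate 2 (2.02% of all rows). Without CD24medCD49f-/low replicate 2, Lcn2 (-1.88), S100a9 (-4.79) and Dmbt1 (2.86 higher) passed, with 4.37% of all rows. In the fits with 1 CD24medCD49f-/low array the spread came from CD24highCD49fmed cells only, and the S100a9 and Dmbt1 calls with replicate 1 alone rest on the array in which both genes stood apart from replicate 2. S100a9 alone passed when all 14 arrays shared the fit, and Lcn2, S100a9 and Cd55 passed after quantile normalization. Without replicate 1 the differences themselves were -1.11 for Ltf, -1.26 for Lcn2, -0.91 for Cd14, -0.86 for Cd55 and -1.94 for S100a9, with 0.01 for Dmbt1.

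S100a9 had its own pattern. The first CD24medCD49f-/low array gave 4.10 and the second 1.25. In CD24highCD49fmed cells it was -0.89, -0.43 and -0.74, and in basal cells -0.04, -0.95 and -0.60 (CD24medCD49fmed), -0.51, -0.27 and -0.53 (Thy-1-CD24medCD49fhigh) and -0.19, -0.25 and 0.06 (Thy-1+CD24medCD49fhigh). Both CD24medCD49f-/low arrays were above the highest of the other 12. S100a8, the gene of its calprotectin partner, was 3.59 in replicate 1 and only 0.24 in replicate 2, within the range of the other 12 arrays (-0.86 to 0.76). Replicate 1 exceeded replicate 2 by 3.35 for S100a8 and 2.85 for S100a9, the largest and second largest gaps of 7190 rows, for which the median gap was -0.08 and the SD 0.39.

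Some other myeloid genes were high in the same array, those with the largest gaps between the replicates being named first. Lyz2, the lysozyme gene of macrophages and neutrophils, was 2.30 in replicate 1 and 0.22 in replicate 2. Mpo, the myeloperoxidase gene of neutrophil granules, was 2.29 and -0.17, and Camp, which encodes the granule peptide cathelicidin, was 2.07 and -0.05. Lyz1, a close copy of Lyz2 whose probe sets may share RNA with it, was 2.53 and -0.06. For these 4 genes replicate 1 was above the highest of the 12 other arrays and replicate 2 was within their range. Outside CD24medCD49f-/low cells the probe sets of S100a8, Lyz2, Mpo and Camp spanned 1.57 to 1.65 log2, less than the filter of the table, so these genes entered it because replicate 1 was high and their standing out there is a description. Other markers of the lists were not high in replicate 1: the neutrophil genes Stfa3 and Il1r2 were -1.01 and -0.51 (-0.84 and -0.43 in replicate 2), Padi4 was 0.08 (-0.48), the macrophage gene Cd163 was 0.25 (0.24), and the pan-leukocyte genes Lcp1 and Srgn were 0.73 and -0.52 (1.06 and -0.69). The pan-leukocyte gene Laptm5 was 1.67 and 0.25, with a highest value of 1.67 elsewhere. Ptprc, which encodes the CD45 antigen of the stain, was 0.19 and -0.22, both within the range of the other arrays (-0.72 to 1.63). As the values are centred, no marker can be said to be absent.

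Taken as lists chosen for leukocytes, few genes were in the table: 6 of 26 neutrophil, 4 of 32 macrophage and monocyte, 5 of 16 pan-leukocyte and 3 of 23 lymphocyte markers. The summed values of the 6 neutrophil markers were 6.51 in the first CD24medCD49f-/low array and -1.73 in the second. They ran from -2.22 to -0.11 in CD24highCD49fmed, -2.56 to -1.44 in CD24medCD49fmed, -3.34 to 0.60 in Thy-1-CD24medCD49fhigh and -1.47 to 8.42 in Thy-1+CD24medCD49fhigh cells. The highest sum, in Thy-1+CD24medCD49fhigh replicate 3, came with Stfa3 at 4.08 and Il1r2 at 2.35, while S100a8 was 0.18 and Camp 0.58 there. All 6 neutrophil markers were above 0 in Thy-1+CD24medCD49fhigh replicates 1 and 3, and 4 of 6 in CD24medCD49f-/low replicate 1. The 4 macrophage and monocyte markers summed to 3.36 and -0.14 in the CD24medCD49f-/low replicates, and reached 3.72 in Thy-1+CD24medCD49fhigh cells. The pan-leukocyte sums were 2.22 and -0.91 in the CD24medCD49f-/low replicates and reached 4.29 in Thy-1+CD24medCD49fhigh cells, and the lymphocyte sums were below 0 in both and reached 5.15 there, 3.03 of it from Thy1, the gene of the antigen those cells were sorted on. In luminal against basal cells none of the neutrophil or macrophage markers passed the threshold. In CD24medCD49f-/low against basal cells S100a8 (2.17 higher, limma adjusted p = 0.0173) and Lcp1 (1.71, 0.0175) passed, neither of them with median-centred arrays. S100a8 had entered the table because replicate 1 was high. Lcp1 was also called higher in all luminal (2.20) and in CD24highCD49fmed cells (2.69) against basal cells, and with median-centred arrays too. The pan-leukocyte genes Arhgdib and Srgn were called lower in luminal than in basal cells. The part of leukocyte RNA in the S100a9 value of replicate 2 was not tested.

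The gap between the CD24medCD49f-/low replicates was smaller or opposite in the other 6 genes. Replicate 1 minus replicate 2 was -0.02 for Ltf, 0.03 for Cd55, 0.29 for Cd14, 0.33 for Slpi and 0.62 for Lcn2, itself known from neutrophil granules, whose gap ranked 277 from the top of the 7190 rows. The gap of Dmbt1, -2.85, had the opposite sign and was the second lowest of the 7190 rows.

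**Figure D3:**
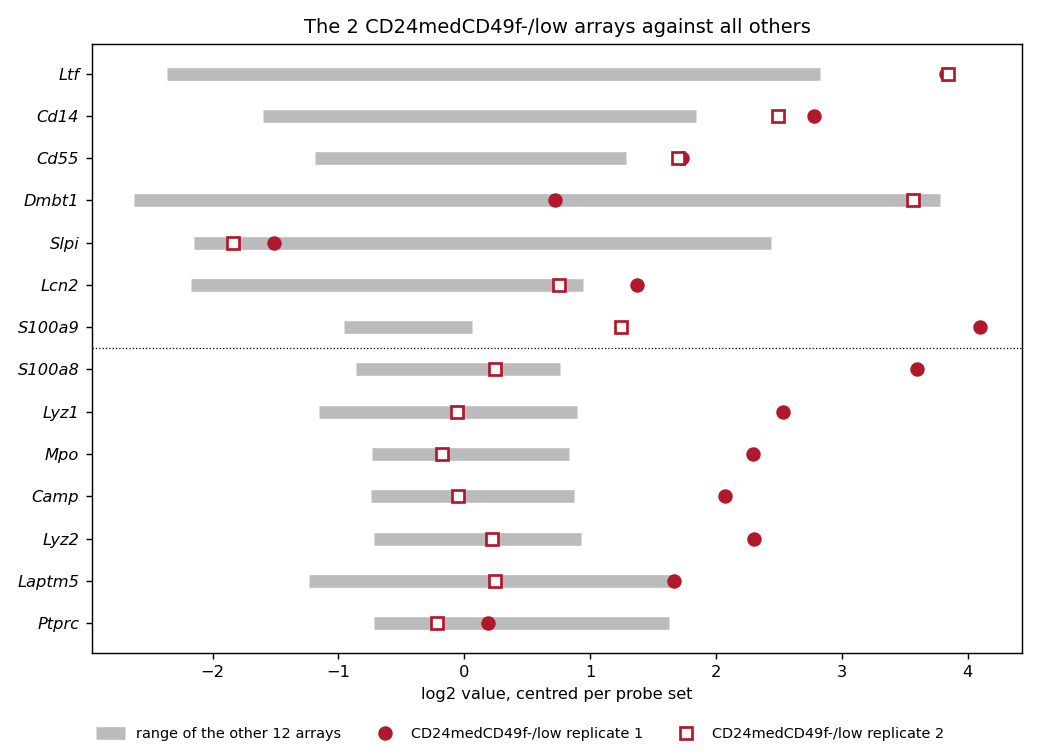
Log2 values, centred per probe set, in CD24medCD49f-/low replicate 1 (filled circles) and replicate 2 (open squares), with the range of the other 12 arrays as a grey bar, for the 7 genes (above the dotted line) and for S100a8 and 6 leukocyte genes. Replicate 1 is to the right of the bar and replicate 2 within it for S100a8, Lyz1, Mpo, Camp and Lyz2, whereas the replicates nearly coincide for Ltf (3.83 and 3.85) and Cd55 (1.73 and 1.70).

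Among the 3 basal populations 0 of the 7 genes passed the limma threshold in any pair, with 0.0417% of all rows called between the populations with and without Thy-1 and 0% in either other pair. At an unadjusted p under 0.05 there were 1, 2 and 2 genes, and by rank products at p under 0.01 there were 0, 2 and 1, in the order with against without Thy-1, Thy-1+CD24medCD49fhigh against CD24medCD49fmed, and Thy-1-CD24medCD49fhigh against CD24medCD49fmed. Of all rows 5.29%, 5.33% and 1.17% had such an unadjusted p, and 2.24%, 2.02% and 2.24% such a rank product. The rank product genes were Dmbt1 and Slpi in the second pair and Dmbt1 in the third. Dmbt1 was 1.16 higher in Thy-1+CD24medCD49fhigh than in CD24medCD49fmed cells without overlap, as were 2% of all rows, and its unadjusted limma p was not under 0.05. Lcn2 was -1.73 in Thy-1+CD24medCD49fhigh relative to Thy-1-CD24medCD49fhigh cells (95% interval -3.13 to -0.33, limma adjusted p = 0.755) and -1.75 relative to CD24medCD49fmed cells (-3.22 to -0.28, adjusted p = 0.548). Slpi was -1.80 in Thy-1+CD24medCD49fhigh relative to CD24medCD49fmed cells (-2.95 to -0.65, adjusted p = 0.548), with no overlap between the groups, as for 6.86% of all rows. Unlike Lcn2, Slpi was low in all 3 Thy-1+CD24medCD49fhigh arrays, replicate 2 (0.24) included. Without replicate 2 both passed against CD24medCD49fmed cells, Lcn2 at -2.62 (adjusted p = 0.0387) and Slpi at -1.91 (0.0477), in a fit that keeps the arrays with the lowest medians, and Lcn2 passed against Thy-1-CD24medCD49fhigh cells with array weights (-2.35, adjusted p = 0.0197). In Thy-1-CD24medCD49fhigh relative to CD24medCD49fmed cells Ltf was 0.73 (95% interval 0.01 to 1.46) and Dmbt1 1.19 (0.10 to 2.28), with an adjusted p of 0.999 for both.

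Other genes of the same pathways were counted in lists, against 27.7% of all rows called higher and 17.4% lower in luminal cells, or 19.9% and 21.8% with median-centred arrays. In a list of LPS sensing and NF-kB genes, 7 of the 10 measured were higher, none was lower, and the median was 0.87 against 0.33 over all rows. The count of 7 includes Lbp, Nfkbia and Tnfaip3, which spanned 1.22, 1.52 and 1.90 log2 outside CD24medCD49f-/low cells. They entered the table through that luminal population, so their luminal calls, and their part in the count and median, are a description. Tlr4, the receptor that Cd14 serves, was 1.94 higher (SE 0.26, limma adjusted p = 8.12e-06), and its values ran from 0.78 to 1.52 in luminal and from -1.08 to -0.13 in basal arrays. Nfkbiz, which encodes a nuclear co-activator of NF-kB, was 1.56 higher (SE 0.32), the inhibitor gene Nfkbia 1.54 (SE 0.25) and Tlr3, a receptor for double-stranded RNA, 1.39 (SE 0.31). Lbp, whose product loads LPS onto Cd14, was 0.87 higher (SE 0.28, adjusted p = 0.0162) but did not pass with median-centred arrays, nor did Tnfaip3, which left 5 called. The entry of Lbp into the table rests on CD24medCD49f-/low replicate 1, where it was 1.47, against 0.47 in replicate 2. Ly96, the Tlr4 partner, was not among the named genes. Within the luminal layer, Nfkbia (-0.96, limma adjusted p = 0.0269) and Tnfaip3 (-1.17, 0.0158) were lower in CD24highCD49fmed than in CD24medCD49f-/low cells, as Cd14 was. Since Nfkbia and Tnfaip3 entered the table only through CD24medCD49f-/low cells, these calls too are a description.

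Of 21 measured genes in a wider list of secreted antimicrobial and acute-phase genes, 13 were higher and 5 lower in luminal cells (median 1.00), and 10 and 6 with median-centred arrays, the lower ones being near the share of all rows. The probe sets of Muc20, among those higher, spanned 1.01 and 1.53 log2 outside CD24medCD49f-/low cells, so it entered the table through them. Wfdc18 and Wfdc2, which share the whey acidic protein fold with Slpi, were 3.85 (SE 0.35) and 3.35 (SE 0.55) higher in luminal cells, the opposite of Slpi (limma adjusted p = 4.24e-08 and 6.66e-05). The chemokine gene Cxcl15 was 3.61 higher (SE 0.37) and haptoglobin, Hp, 3.00 (SE 0.31). Genes higher in basal cells were Rnase4, a secreted ribonuclease (luminal minus basal -4.47, SE 0.44), Chil1, a chitinase-like protein (-2.87, SE 0.35), the soluble pattern receptor gene Ptx3 (-1.63, SE 0.37) and Ang, an angiogenin (-1.35, SE 0.36). The limma adjusted p of these 6 genes was 2.20e-07, 2.61e-07, 1.43e-07, 2.41e-06, 0.00131 and 0.00456. Chil1 differed between the CD24medCD49f-/low replicates, at -0.41 and -2.25.

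Of 8 measured complement genes 2 were higher, near the share of all rows, and 4 lower in luminal cells (median -0.53). Clu, which encodes the fluid-phase inhibitor clusterin, was 2.13 higher (SE 0.32), as Cd55 was. Other inhibitors ran with the basal cells: Serping1, the C1 inhibitor gene, was -2.48 (SE 0.38), and Cd59a, which blocks the membrane attack complex, was -0.87 (SE 0.30). C1s1, a protease of the classical pathway, was -1.95 (SE 0.32), and the complement component gene C2 was 0.91 higher (SE 0.34) but did not pass with median-centred arrays. The limma adjusted p was 2.38e-05 for Clu, 3.20e-05 for Serping1, 0.0225 for Cd59a, 7.44e-05 for C1s1 and 0.0348 for C2. Cd46, Cr1l and Cd55b were not among the named genes. Of 7 other measured genes of the S100 list, S100a1 (1.12, SE 0.33) and S100a6 (1.07, SE 0.29) were higher and S100a4 (-0.97, SE 0.30) was lower in luminal cells, with S100a8 at 0.96 (SE 0.40, adjusted p = 0.0589).

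**Figure D4:**
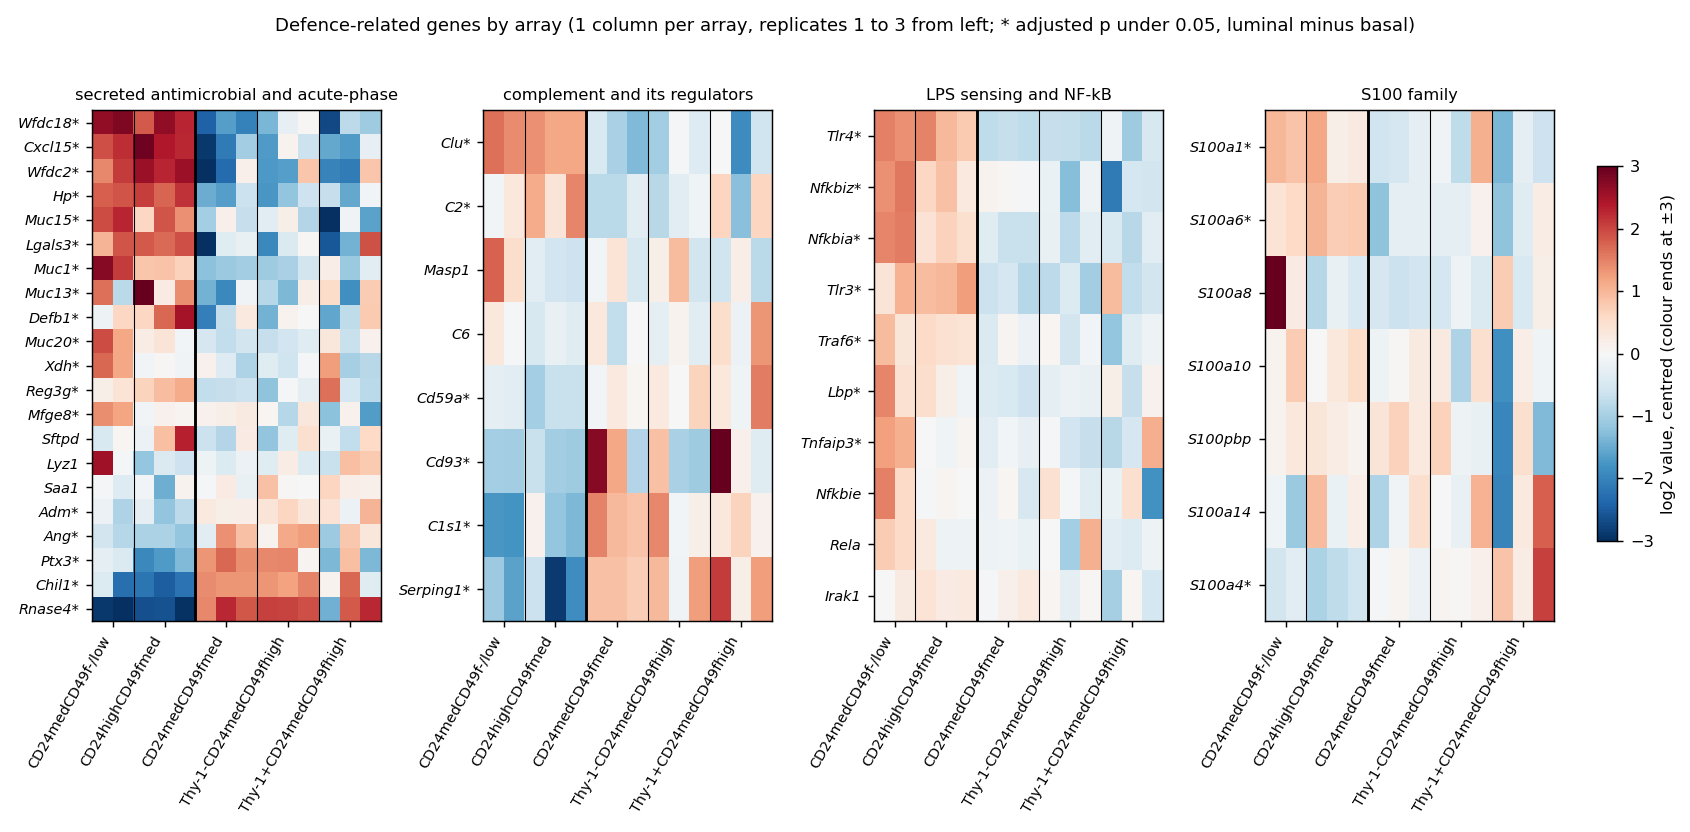
Log2 values, centred per probe set, of the measured genes of 4 defence-related lists, with 1 column per array grouped by population (luminal arrays left of the thick line) and genes ordered by their luminal minus basal difference. Wfdc18, Cxcl15 and Tlr4 are high in all 5 luminal arrays, Rnase4 is low in them, and S100a8 and Lyz1 are high in CD24medCD49f-/low replicate 1 (3.59 and 2.53).

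The genes whose values were most like each of the 7, by Pearson correlation over the 14 arrays, fell along the same lines. These correlations describe arrays that share the split between the layers. Elf5, an ETS factor of luminal progenitor and alveolar cells, was the nearest gene to both Ltf and Cd14 (r = 0.992 for each), and Cd14 was the third nearest to Ltf (0.988), after Dapp1 (0.989). Aldh1a3 and Kit, known from luminal progenitors, were next for Cd14 (0.991 for each). Elf5 itself was 3.54 and 3.39 in CD24medCD49f-/low cells, 2.26 to 2.58 in CD24highCD49fmed cells and -0.95 or lower in basal arrays. Nearest to Cd55 were Rgs20 (0.946), Fcgbp (0.939) and Mapkapk3 (0.931), and nearest to Dmbt1 was Dtx4 (0.983), with Itih5 (0.971) and Sh3bgrl2 (0.968). Over the 13 arrays without CD24medCD49f-/low replicate 1, Elf5 was the nearest gene to Dmbt1 as well (0.985). Slpi was nearest to Rcn3 (0.981), Mdk (0.98) and Fbln1 (0.979), and Lcn2 to Ephx1 (0.939), Dgkz (0.936) and Fgfr1 (0.936). S100a9 was nearest to S100a8 (0.94), Ptges (0.889) and Lyz2 (0.889). Without replicate 1 its nearest genes were Marco, a macrophage scavenger receptor (0.946), and, less closely, the milk protein gene Lalba (0.706) and the sodium channel gene Scnn1b (0.643), with no neutrophil marker among the 3. These last correlations rest largely on CD24medCD49f-/low replicate 2, where S100a9 was 1.25, against -0.95 to 0.06 in the other 12 arrays.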

How the data were processed

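RNA of sorted mammary populations was hybridized to 14 Affymetrix mouse arrays. The authors deposited 1 table of log2 values, made by robust multichip average (RMA) in MIDAS, then filtered and centred per probe set in Cluster 3.0. The notes of the submitters also name GCRMA, with versions not given in the sources used here. Each of the 9645 rows averaged 0 over the arrays and spanned at least 2.00 log2. The paper's methods also name a minimum expression level as part of the authors' filter. Centring removes absolute levels, so dim probe sets could not be filtered further here, signal over background is unknown, and the number of arrays limits the precision. The filter kept only variable probe sets, so a gene missing from the table may be unexpressed or merely constant.

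Probe sets with 1 symbol (8499) were averaged to 6044 genes. Those with several symbols (199) or none (947) stayed single, giving 7190 rows. Groups were compared with limma 3.58.1 in R 4.3.3, two-sided, fitted to all rows of the arrays compared, with Benjamini-Hochberg adjusted p under 0.05. Luminal minus basal is the mean of the 2 luminal population means minus the mean of the 3 basal ones. The paper's methods used rank products, run here as an alternative in Python 3.11.15 (numpy 2.4.6, pandas 2.3.3) with 100 permutations of each array's values and p under 0.01. Further alternatives were a replicate block, array weights, a joint fit of all arrays, single probe sets, median centring, quantile normalization, a minimum log2 difference of 1, and leaving out each array, and, added after the data were seen, both low Thy-1+CD24medCD49fhigh arrays. Both tests were tried on simulated data. Deviations from group means correlated between same-numbered arrays of CD24medCD49fmed and Thy-1+CD24medCD49fhigh cells (r = 0.386 to 0.391). They also did for CD24medCD49fmed and Thy-1-CD24medCD49fhigh cells (0.328 to 0.558). These arrays may therefore be paired, which no label states. The correlation did not hold in every pair between Thy-1+CD24medCD49fhigh and the Thy-1-negative CD24medCD49fhigh cells. The main fits treated all arrays as unpaired, and the replicate block was the alternative that paired them.

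The genes and lists were chosen with earlier results of these data known. The text names the 7 genes, the most changed called genes of each list (up to 4 each way), partners by role, the 3 nearest genes by correlation, and for leukocyte lists the genes with the largest gap between the CD24medCD49f-/low replicates. Promoters are from RefSeq. Figures were drawn with matplotlib 3.10.9.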

Additional observations from a re-analysis of the deposited data

How the results depend on the processing

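Most values held. Over all alternatives, 108 of 120 counts of genes past the threshold stayed within 1.5 times the main count, and of 613 values of single genes 565 kept direction and call, 35 lost the call, 12 gained it and 1 turned its direction. In the basal pairs the 613 values cover only genes with an unadjusted limma p under 0.05. Turns of direction among the weaker differences there were therefore not counted. That 1 was Lcn2 in luminal relative to basal cells, which was -0.23 without both low Thy-1+CD24medCD49fhigh arrays. When each array was left out in turn, the number of the 7 genes past the threshold ran from 5 to 7 for luminal against basal cells and was 5 throughout for CD24highCD49fmed against basal cells. It ran from 3 to 7 for CD24medCD49f-/low against basal cells, from 0 to 5 between the luminal populations, and from 0 to 2 for Thy-1+CD24medCD49fhigh against CD24medCD49fmed cells, and it was 0 for the other basal pairs. Between the luminal populations it was 1 with all 14 arrays in 1 fit and 3 after quantile normalization. Among basal cells it was 1 with array weights between the CD24medCD49fhigh populations with and without Thy-1. With rank products it was 2 for Thy-1+CD24medCD49fhigh and 1 for Thy-1-CD24medCD49fhigh against CD24medCD49fmed cells. The cause of these shifts was not tested. The fit with the replicate number as a block changed no count by over 1.5 times and 1 call, that of Dmbt1 between the luminal populations (1.34 higher in CD24highCD49fmed cells, limma adjusted p = 0.00549). Between the luminal populations 1.71% of all rows were called higher and 3.92% lower with median-centred arrays, and 1.92% and 3.42% after quantile normalization. For CD24highCD49fmed against basal cells median centring gave 14.5% and 18.2%. With 2 arrays of CD24medCD49f-/low cells, each value of that population rests on the agreement of a pair.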

Other observations

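CD24medCD49f-/low replicate 1 also stood above replicate 2 in cytokine and prostaglandin genes, named here after their values were seen. Csf3, which encodes the growth factor of neutrophils, was 2.04 log2 higher in replicate 1, Csf1 2.13 and the prostaglandin synthase gene Ptgs2 2.27. With Dmbt1, the fibrinogen chain genes Fgb (-2.37) and Fgg (-2.11) were lower in replicate 1 than in replicate 2. These are gaps between a pair of arrays and have no test.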
